A study of Mus musculus with 31 samples.

Results

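The genes described here are the UDP-glucuronosyltransferases and cytosolic sulfotransferases of mouse liver. They were chosen by symbol alone, as every symbol that starts with Ugt1a, Ugt2a, Ugt3a or Ugt2b and a number, or with Sult and a number. This gave 48 of the 31172 symbols, of which 21 were Ugt and 27 were Sult genes, the latter with 6 pseudogenes. RNA from the livers of 31 mice was sequenced, 1 library per mouse, and values are in TPM, the relative abundance among all transcripts of a mouse that the authors deposited for each symbol.

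All mice were hFIX-R29X mice, aged 8 to 14 weeks. They lack the mouse F9 gene and carry a human factor IX minigene with the nonsense mutation R29X, which the human transthyretin promoter expresses in hepatocytes. They were injected subcutaneously 6 times at intervals of 5 days with DPBS (the vehicle) or with an antisense oligonucleotide (ASO), a gapmer joined to GalNAc so that hepatocytes take it up, and were killed 48 h after the final injection. The 5 groups were DPBS (11 mice, 6 female and 5 male), Control-GalNAc-ASO at 15 mg/kg (Control15, 4 mice, 2 of each sex), Control-GalNAc-ASO at 20 mg/kg (Control20, 6 mice, 3 of each sex), Upf3b-GalNAc-ASO at 10 mg/kg (Upf3b10, 5 mice, 2 female and 3 male) and Upf3b-GalNAc-ASO at 20 mg/kg (Upf3b20, 5 mice, 2 female and 3 male). The control ASO has a scrambled sequence. UPF3B is a factor of nonsense-mediated mRNA decay, the pathway that degrades mRNAs with premature stop codons. The lower dose level therefore set 10 mg/kg of one ASO against 15 mg/kg of the other.

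Both families conjugate small lipophilic molecules so that they can be excreted. UDP-glucuronosyltransferases sit in the membrane of the endoplasmic reticulum and transfer glucuronic acid from UDP-glucuronic acid to bilirubin, steroids, bile acids and drugs. Sulfotransferases of the SULT family are cytosolic and transfer a sulfo group from PAPS (3′-phosphoadenosine 5′-phosphosulfate) to phenols, steroids, bile acids and amines. In rodent liver several of these genes are known to differ between the sexes, in part through the sex-dependent pattern of growth hormone release, and several are induced through the nuclear receptors CAR and PXR, AHR and NRF2.

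The Ugt1a genes are a special case, since they are alternative 5′ parts of a single locus. On chromosome 1 of GRCm38 (plus strand) the 5′ part of each, which encodes the region of the enzyme that binds the substrate, is spliced to 4 common exons. The 5′ part is 1 exon in 6 of the annotated transcripts and 2 exons in those of Ugt1a6a, Ugt1a6b and Ugt1a7c. Of the common exons, the first starts at 88215044 and ends at 88215175. The joints of 5 of the 9 Ugt1a transcripts (GENCODE M21) are printed to show how little of a read sets these genes apart. The lower-case bases are the last 30 of the exon before the joint, which is the first exon except in Ugt1a6a, where it is the second, and the capitals are the first 30 of the common exon.
Ugt1a8: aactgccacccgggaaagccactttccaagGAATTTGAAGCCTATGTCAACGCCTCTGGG
Ugt1a9: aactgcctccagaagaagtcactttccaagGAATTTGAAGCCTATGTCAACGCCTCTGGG
Ugt1a5: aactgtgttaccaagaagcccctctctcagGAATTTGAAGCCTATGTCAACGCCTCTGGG
Ugt1a6a: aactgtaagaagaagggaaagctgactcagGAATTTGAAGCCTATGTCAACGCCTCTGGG
Ugt1a1: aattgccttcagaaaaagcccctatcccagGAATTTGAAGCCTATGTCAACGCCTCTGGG
The capitals are identical in all 5. Ugt1a8 (chr1:88087813-88219004) and Ugt1a9 (chr1:88070800-88218997) had 0 mismatches over the 1311 bases compared after the joint. A read from the 3′ end of one of these 2 transcripts therefore cannot be told from a read of the other. The rest also matched Ugt1a8 over the 1311 to 1318 bases compared. The annotated transcript of Ugt1a7c runs on to 88220002, past the part compared, so a read from its far 3′ end may be its own. The sum of the 9 genes was carried along as a value of its own.

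The targeted gene was checked first. Upf3b was between 33.9 and 136 TPM in DPBS-treated mice (median 104), at 66.9, 78.7, 27.1 and 58.5 TPM in Control15 and between 85.3 and 135 TPM in Control20. In Upf3b10 it was 5.97, 53.8, 20.7, 3.95 and 23.3 TPM, and in Upf3b20 9.37, 7.68, 2.68, 2.57 and 16.7 TPM. The groups did not overlap at 20 mg/kg (log2 fold change −3.87 ± 0.40 (SE), limma adjusted p = 1.59e-05). At the lower dose level the 53.8 TPM of the female mouse labelled Upf3b10 replicate 3 lay among the Control15 values, and the difference did not pass (−1.73 ± 0.61, adjusted p = 0.211). That mouse is called the mouse labelled Upf3b10 replicate 3 from here on. It also had the fewest reads of all, 1020676, where the range over all mice ended at 7391615 and the median was 3627941. Several results that rest on it are given with and without it.

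Of the 48 genes, 20 reached a median of 5 TPM in at least 1 group, 11 Ugt and 9 Sult. A further 18 had a value above 0 in some mouse, and 10 were at 0 in every mouse, namely Sult1c1, Sult2b1, Sult6b1, Sult6b2 and the 6 pseudogenes. At the depths of these libraries 3 reads were worth between 0.406 and 2.94 TPM, so a gene at 0 may have been present below that level. A symbol at 0 in every mouse may also not have been measured, since Foxa3, a transcription factor of hepatocytes, was listed at 0 in all 31 mice too. This floor covers counting error only. Since liver is a mixture, fewer cells of a type and less RNA per cell cannot be told apart in these values.

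The Ugt1a locus was lower in mice given the Upf3b ASO than in mice given the control ASO, in both sexes by the means. The sum of the 9 genes was 5486 and 3338 TPM in the Control15 females and 3843 and 3498 TPM in the males. In Upf3b10 it was 2039 and 966 TPM in females and 1768, 3108 and 1713 TPM in males, so that all 5 lay below the lowest Control15 mouse. In Control20 it was 4655, 5021 and 3342 TPM in females and 3756, 3456 and 1799 TPM in males, and in Upf3b20 2160 and 2079 TPM in females and 1003, 2364 and 1817 TPM in males. Here the groups overlapped through the male Control20 replicate 6 at 1799 TPM.

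Over both dose levels the mean of the Ugt1a sum was 3819 ± 1038 TPM (SD, n = 10) with the control ASO and 1902 ± 626 TPM (SD, n = 10) with the Upf3b ASO. The sum fell by 1.03 ± 0.22 (SE) on the log2 scale (limma with a term for sex, fitted to log2(TPM + 1), adjusted p = 0.00488 over all 9797 genes fitted). In females alone the values were 4368 ± 984 TPM (SD, n = 5) and 1811 ± 566 TPM (SD, n = 4), with no overlap. In males they were 3270 ± 839 TPM (SD, n = 5) and 1962 ± 709 TPM (SD, n = 6), with overlap. Neither dose level passed alone (−1.16 ± 0.33, adjusted p = 0.127 at the lower and −0.90 ± 0.26, adjusted p = 0.0713 at the higher level), but the lower did without Upf3b10 replicate 1 (adjusted p = 0.0438) and the higher without Control20 replicate 6 (adjusted p = 0.034) or Upf3b20 replicate 4 (adjusted p = 0.0408). Without any 1 mouse the difference over both levels lay between −1.13 and −0.88 and passed each time, the latter without the mouse labelled Upf3b10 replicate 3. The difference between the dose levels was 0.19 ± 0.43 (adjusted p = 0.935) and that between males and females 0.54 ± 0.43 (adjusted p = 1).

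DPBS-treated mice set the scale of these values. The Ugt1a sum ranged from 3391 to 7833 TPM in their 6 females and from 1748 to 2860 TPM in their 5 males. The 4 females given the Upf3b ASO, at 966 to 2160 TPM, were below all 6 DPBS females. The 6 males given it, at 1003 to 3108 TPM, overlapped the DPBS males. Against DPBS the sum did not pass for either ASO (0.26 ± 0.18, adjusted p = 0.613 for the control ASO and −0.74 ± 0.24, adjusted p = 0.156 for the Upf3b ASO).

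How the deposited values divide the locus between its genes varied from mouse to mouse, also within DPBS, Upf3b10 and Upf3b20. Ugt1a8 and Ugt1a9 together made up 68.0% to 99.99% of the sum (median 99.8%). Ugt1a8 alone ranged from 8.06% to 99.98% and was over 50% in 13 mice, and Ugt1a9 ranged from 0% to 91.8%, was over 50% in 17 mice and was under 1% in 5. All 10 mice given the control ASO had over 50% in Ugt1a9, between 57.0% and 91.8%, as did 5 of 11 given DPBS and 2 of 10 given the Upf3b ASO. This order is a description, since it rests on how reads of shared exons were divided. Among the 5 DPBS males, which had the same treatment and sex, Ugt1a9 was 2365, 428, 0.00015, 0.00066 and 61.1 TPM.

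**Figure D1:**
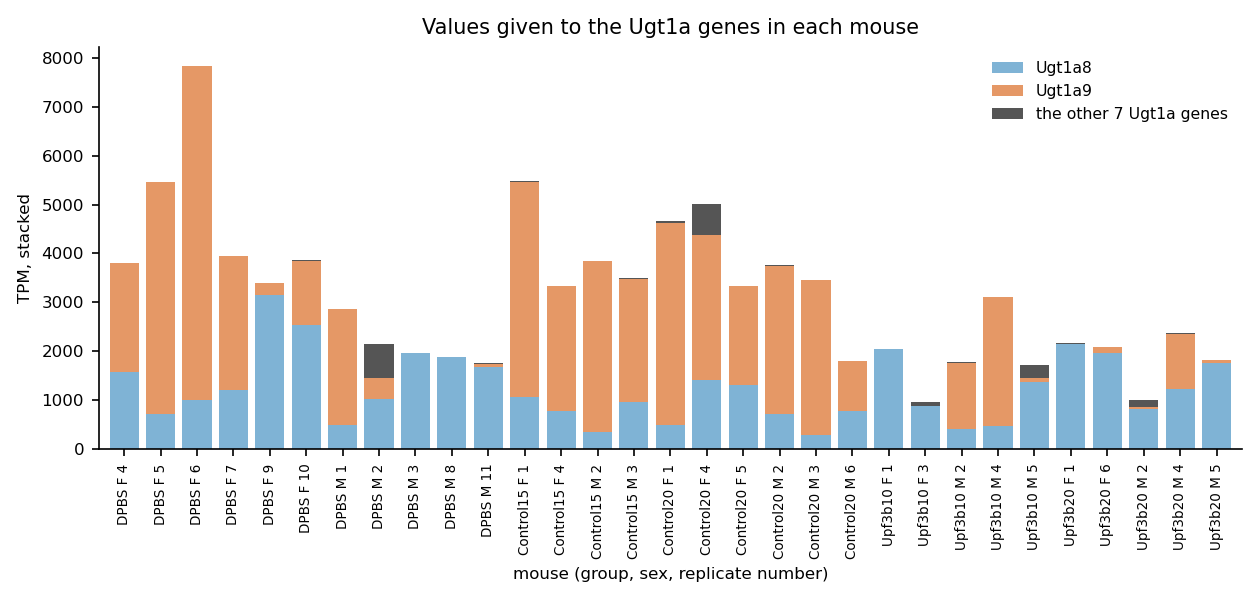
Deposited TPM of the Ugt1a genes in each of the 31 mice, stacked as Ugt1a8, Ugt1a9 and the other 7 genes (y axis, TPM, linear from 0) and ordered by group and sex (x axis), so that the height of a bar is the sum over the locus. The parts given to Ugt1a8 and Ugt1a9 change from mouse to mouse within DPBS and the Upf3b ASO groups, Ugt1a9 holds the larger part in all 10 mice given the control ASO, and the sums of the 4 females given the Upf3b ASO, 966 to 2160 TPM, lie below all other females.

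The single Ugt1a genes followed this split. Ugt1a9, an isoform for bulky phenols, had the largest fitted difference of any gene counted here between the Upf3b and control ASO over both dose levels (−6.09 ± 1.33, adjusted p = 0.0144), with 0.165, 0, 0 and 122.5 TPM in the 4 females given the Upf3b ASO. This size rests on values near 0 in some mice and up to 6823 TPM in others. Ugt1a8 differed in the opposite direction without passing (0.74 ± 0.27, adjusted p = 0.101). Ugt1a5 was at most 1.46 TPM in 27 mice and at 682, 638, 250 and 127 TPM in the other 4, which came from 4 different groups. Ugt1a1, whose product conjugates bilirubin, was above 1 TPM in 1 mouse (21.6 TPM, Upf3b20 replicate 2). Ugt1a7c, at 0 to 27.4 TPM, did not differ past the threshold (−0.28 ± 0.60, adjusted p = 0.829). Ugt1a6a, a phenol isoform, reached 57.9 TPM in the mouse labelled Upf3b10 replicate 3 and at most 6.32 TPM in the other mice. The sum does not depend on how reads were divided between these genes.

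The other UDP-glucuronosyltransferases lie outside this locus, the Ugt2 genes side by side on chromosome 5. UGT2B enzymes conjugate steroids, bile acids and drugs. Ugt2b34 (chr5:86889767-86906937, minus strand) was the 1 gene among them that passed. It was 370, 163, 267 and 301 TPM in Control15 against 130, 187, 165, 139 and 166 TPM in Upf3b10, and 159 to 235 TPM (median 190) in Control20 against 161, 106, 66.0, 129 and 171 TPM in Upf3b20. Over both dose levels it fell from 227 ± 67.5 TPM (SD, n = 10) to 142 ± 36.2 TPM (SD, n = 10), by 0.72 ± 0.20 on the log2 scale (adjusted p = 0.0338). The values overlapped at each dose level. The call was lost without Control15 replicate 1, 2 or 3, Control20 replicate 3 or 5, Upf3b10 replicate 1 or Upf3b20 replicate 6, with adjusted p between 0.0505 and 0.0933. DPBS-treated mice had 121 to 261 TPM (median 193).

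The neighbouring genes did not pass. Ugt2b5 (chr5:87124960-87140318) was 208, 102, 352 and 411 TPM in Control15 and 109, 69.7, 112, 276 and 81.3 TPM in Upf3b10 (−1.14 ± 0.39, adjusted p = 0.203), and over both levels its difference was −0.91 ± 0.30 (adjusted p = 0.072). It passed without Control15 replicate 4, Upf3b10 replicate 4, Upf3b20 replicate 4 or Upf3b20 replicate 6 (adjusted p 0.0297 to 0.0433). Over both levels Ugt2a3 differed by −0.69 ± 0.24 (adjusted p = 0.0872, or 0.0407 without Upf3b10 replicate 4), Ugt2b36 by −0.51 ± 0.28 (adjusted p = 0.288), Ugt2b1 by −0.41 ± 0.28 (adjusted p = 0.408) and Ugt2b35 by −0.06 ± 0.27 (adjusted p = 0.932). The direction was not shared by all, since Ugt2b35 was at 0.31 ± 0.37 at the lower dose level, and in females alone Ugt2b1 was at 0.23 ± 0.40 and Ugt2b35 at 0.31 ± 0.41. The UGT3A enzymes use other UDP-sugars than glucuronic acid. Ugt3a1 differed by −0.73 ± 0.30 (adjusted p = 0.144, or 0.047 without Upf3b10 replicate 1) and Ugt3a2 by −0.66 ± 0.24 (adjusted p = 0.092). Over all 31 mice Ugt2a3 lay between 30.4 and 248 TPM, Ugt2b35 between 15.4 and 78.7 TPM, Ugt2b36 between 59.3 and 404 TPM, Ugt3a1 between 11.8 and 163 TPM and Ugt3a2 between 31.4 and 258 TPM.

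**Figure D2:**
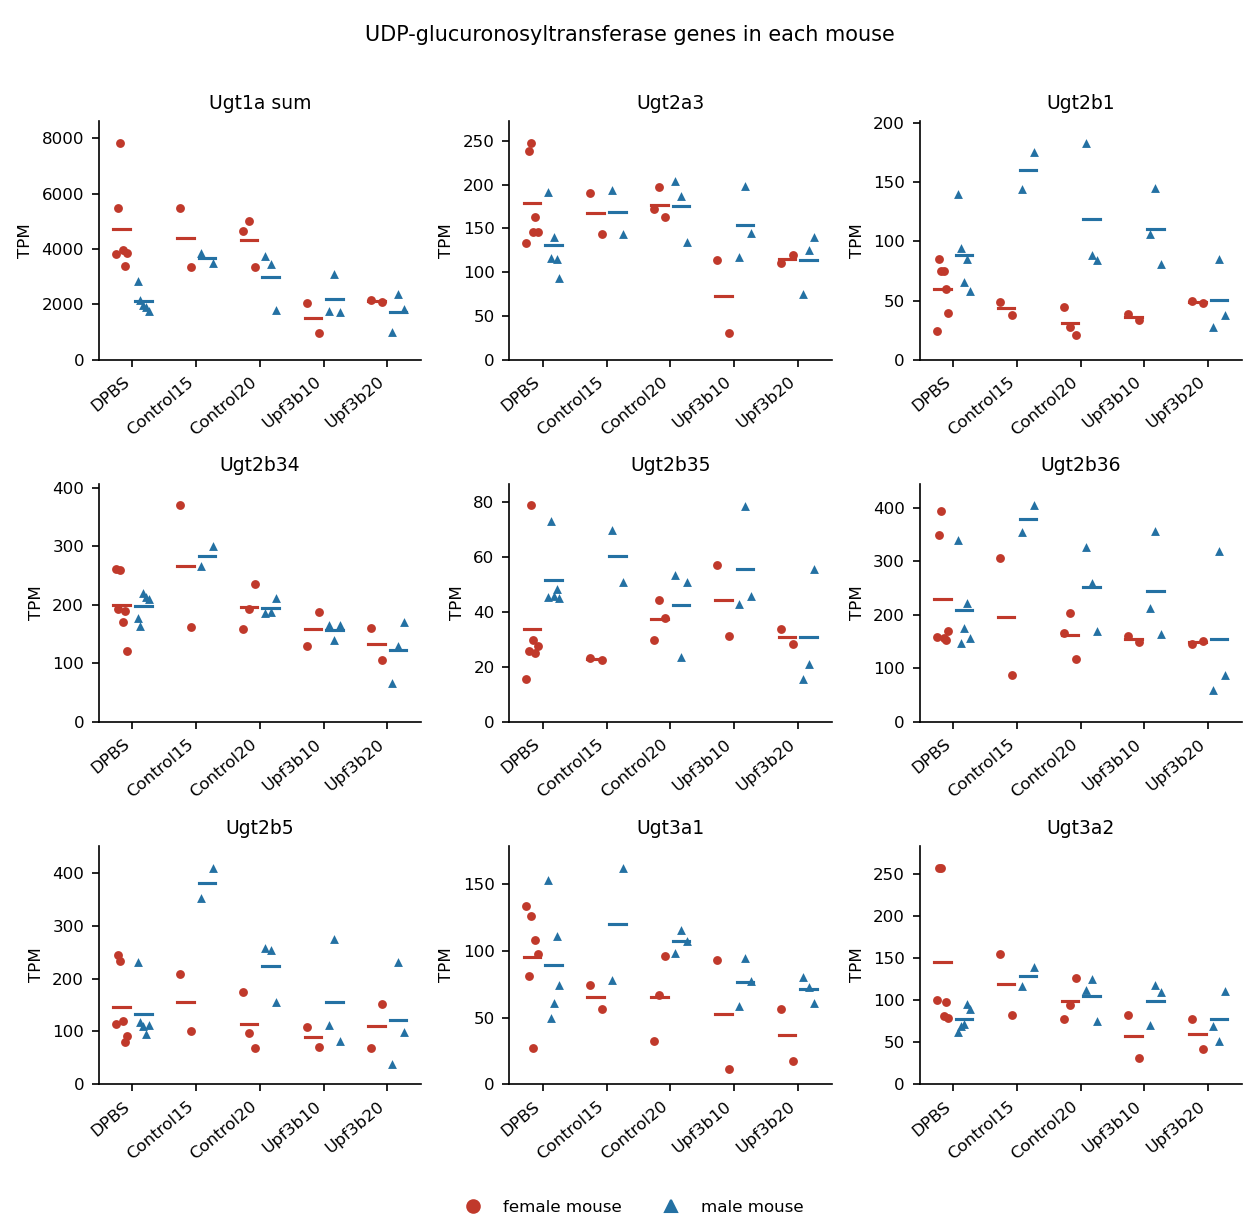
TPM (y axis, linear) of UDP-glucuronosyltransferase genes and of the Ugt1a sum in each mouse by group (x axis), with 1 point per mouse, colour for sex and a bar at the mean of each group and sex. Ugt2b34 lies at 142 TPM on average with the Upf3b ASO against 227 TPM with the control ASO, with overlapping mice.

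Among the sulfotransferases, Sult1a1 was the 1 gene that passed over both dose levels. Its product is the main phenol sulfotransferase of liver. In Control15 it was 725 and 579 TPM in females and 338 and 387 TPM in males, and in Upf3b10 289 and 121 TPM in females and 152, 154 and 147 TPM in males, so that all 5 were below all 4. In Control20 it was 625.3, 822 and 375 TPM in females and 357, 302 and 111 TPM in males, and in Upf3b20 211 and 269 TPM in females and 114, 187 and 129 TPM in males. The male Control20 replicate 6, at 111 TPM, was the mouse that made these groups overlap, as it did for the Ugt1a sum.

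Over both dose levels the mean of Sult1a1 was 462 ± 218 TPM (SD, n = 10) with the control ASO and 177 ± 61.2 TPM (SD, n = 10) with the Upf3b ASO, a fall by 1.22 ± 0.23 on the log2 scale (adjusted p = 0.00184). At the lower dose level the difference was −1.50 ± 0.31 (adjusted p = 0.0592) and passed without Upf3b10 replicate 1 (adjusted p = 0.0115) or the mouse labelled replicate 3 (adjusted p = 0.0159). At the higher level it was −0.96 ± 0.31 (adjusted p = 0.103) and passed without Control20 replicate 6 (adjusted p = 0.0267). The 4 females given the Upf3b ASO, 121 to 289 TPM, were below all 11 females given DPBS or the control ASO, 345 to 822 TPM. The 6 males given it, 114 to 187 TPM, overlapped the DPBS males, 86.3 to 200.4 TPM. Against DPBS, Sult1a1 was 0.78 ± 0.22 higher with the control ASO (adjusted p = 0.233) and differed by −0.41 ± 0.24 with the Upf3b ASO (adjusted p = 0.572), and neither passed.

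The promoter of Sult1a1, which RefSeq places on the minus strand of chromosome 7 of GRCm38.p6 (chr7:126676369-126676668), is printed with those of Sult2a5 and Sult3a1. These 3 sulfotransferase genes were picked because they have an entry and did not overlap between the females of the 2 ASOs. The share of all genes without such overlap was not counted, so nothing is read from this choice. Each runs from 250 bases before to 50 after the start of the gene. Capitals mark matches on either strand to GTTAAT, a core sequence of HNF1 sites, to TTCNNNGAA, the STAT5 motif, or to ATCAAT, bound by HNF6 and CUX2.
Sult1a1: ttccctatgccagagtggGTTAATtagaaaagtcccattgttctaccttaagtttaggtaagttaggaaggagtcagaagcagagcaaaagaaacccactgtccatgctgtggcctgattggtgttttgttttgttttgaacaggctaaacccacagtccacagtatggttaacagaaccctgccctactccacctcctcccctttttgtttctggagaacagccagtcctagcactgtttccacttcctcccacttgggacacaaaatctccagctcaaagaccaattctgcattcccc
Sult2a5: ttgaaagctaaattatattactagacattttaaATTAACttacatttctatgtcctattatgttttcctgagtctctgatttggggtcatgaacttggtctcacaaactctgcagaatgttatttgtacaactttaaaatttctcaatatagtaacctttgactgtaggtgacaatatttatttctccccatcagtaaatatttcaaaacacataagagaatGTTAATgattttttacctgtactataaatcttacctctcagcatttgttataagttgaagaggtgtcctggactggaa
Sult3a1: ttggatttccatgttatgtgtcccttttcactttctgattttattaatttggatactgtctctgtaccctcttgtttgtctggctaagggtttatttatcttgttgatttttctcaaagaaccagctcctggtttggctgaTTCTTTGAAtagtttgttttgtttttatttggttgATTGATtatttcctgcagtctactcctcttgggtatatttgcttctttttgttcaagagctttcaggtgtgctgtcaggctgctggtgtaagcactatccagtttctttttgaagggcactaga
Sult1a1 had 1 match to GTTAAT, starting at base 19. Sult2a5 (chr7:13623717-13624016, plus strand) had matches to GTTAAT at bases 34 and 223, and Sult3a1 (chr10:33857472-33857771, plus strand) had TTCNNNGAA at base 142 and ATCAAT at base 177. Of the 48 genes, 36 had an entry, with 39 windows. GTTAAT was in 13 of these 39 and in 7.10% of all 32851 promoters, ATCAAT in 7 of 39 and in 7.54%, and TTCNNNGAA in 2 of 39 and in 8.30%. A match is a run of letters and does not show that a factor binds there.

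Sult1b1 and Sult1d1 are neighbours on chromosome 5 (chr5:87513339-87538195 and chr5:87554645-87569027, both minus strand). SULT1B1 sulfates thyroid hormones and phenols, and SULT1D1 sulfates catecholamines and phenols. In Control20 Sult1b1 was 14.0, 21 and 51.2 TPM in females and 23.3, 13.1 and 45.3 TPM in males, and in Upf3b20 14.1 and 3.90 TPM in females and 7.49, 4.14 and 4.40 TPM in males. It fell by 1.83 ± 0.48 on the log2 scale at this dose level (adjusted p = 0.0471), from 28.0 ± 16.3 TPM (SD, n = 6) to 6.80 ± 4.31 TPM (SD, n = 5). The call lay close to the threshold and was lost in 16 of 22 alternative fits, among them those without Control20 replicate 2, 3, 4, 5 or 6 or Upf3b20 replicate 4, 5 or 6 (adjusted p 0.0603 to 0.118).

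At the lower dose level Sult1b1 was 11.6, 21.9, 12.2 and 13.2 TPM in Control15 and 7.47, 87.2, 8.21, 10.6 and 3.09 TPM in Upf3b10, in which the 87.2 TPM belong to the mouse labelled replicate 3 (−0.15 ± 0.66, adjusted p = 0.938). Over both levels Sult1b1 did not pass with that mouse (−1.0 ± 0.41, adjusted p = 0.153) and passed without it (−1.37, adjusted p = 0.017). The test of the difference between the dose levels did not pass (−1.59 ± 0.82, adjusted p = 0.63). All 6 males given the Upf3b ASO had less Sult1b1 than each of the 5 males given the control ASO and the 5 given DPBS. The share of all genes that separate in this way was not counted. In males alone the difference from the control ASO did not pass (−1.44 ± 0.47, limma adjusted p = 0.184).

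Sult1d1 was not called at the higher dose level. It was 80.96, 83.6 and 233 TPM in Control20 females and 51.8, 76.3 and 22.2 TPM in males, and in Upf3b20 67.5 and 26.7 TPM in females and 32.5, 26.3 and 6.35 TPM in males (−1.34 ± 0.44, adjusted p = 0.106). In the mouse labelled Upf3b10 replicate 3 it reached 258 TPM, where the other 4 mice of the group had 35.1 to 61.7 TPM.

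The Sult2a and Sult3a1 genes were high in females and near 0 in most males, apart from Sult2a8. SULT2A enzymes sulfate hydroxysteroids such as dehydroepiandrosterone and bile acids. Sult2a1 (chr7:13796246-13837409, minus strand), Sult2a2 (chr7:13733505-13779636, plus strand) and Sult2a5 (chr7:13623967-13670807, plus strand) lie side by side, and their transcripts are similar enough that reads may be divided between them. Of the 31-base words in the last 500 bases of the transcript, 37.2% in Sult2a1, 68.5% in Sult2a2 and 63.4% in Sult2a5 also occur in other genes, against 0.43% in Sult2a7 and 5.75% in Sult3a1.

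In females given the Upf3b ASO, Sult2a1 and Sult2a5 were at or near the floor. Sult2a1 was 0, 0.980, 1.49 and 0 TPM in the 4 females given the Upf3b ASO, against 23.4, 16.6, 16.0, 7.88 and 122.9 TPM in the 5 females given the control ASO. Sult2a5 was at 0 in all 4 and 5.67, 5.64, 34.7, 12.9 and 54.0 TPM in the 5. With a floor of 3 reads per library, this made Sult2a5 at least 17.5-fold lower. Sult2a2 was 15.9, 0, 3.62 and 0 TPM against 37.1, 17.6, 15.4, 27.9 and 59.9 TPM, which overlap. Summed over Sult2a1 to Sult2a7, the 4 had 0.821 to 19.2 TPM, below the 5 at 52.8 to 249 TPM and the 6 DPBS females at 26.1 to 442 TPM.

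Sult3a1 (chr10:33857721-33879532, plus strand), whose product sulfates amines, followed the same pattern. It was 14.3, 41.2, 2.34 and 2.26 TPM in the 4 females given the Upf3b ASO and 107, 64.2, 134, 63.9 and 66.6 TPM in the 5 females given the control ASO, with no overlap. The means were 15.0 ± 18.3 TPM (SD, n = 4) and 87.0 ± 31.8 TPM (SD, n = 5). The 6 DPBS females were between 13.5 and 201 TPM, and 2 of them, at 13.5 and 15.3 TPM, lay among the females given the Upf3b ASO.

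In the fit over both sexes none of these genes passed over both dose levels: Sult2a1 differed by −1.78 ± 0.62 (adjusted p = 0.0835, or 0.0435 without Upf3b20 replicate 2), Sult2a5 by −1.61 ± 0.60 (adjusted p = 0.104), Sult3a1 by −1.47 ± 0.50 (adjusted p = 0.0778) and Sult2a2 by −1.36 ± 0.60 (adjusted p = 0.183). The fit in females alone, added after the data were seen, compares 4 with 5 mice. There Sult2a1 fell by 3.97 (adjusted p = 0.029), Sult2a5 by 3.82 (adjusted p = 0.015) and Sult3a1 by 3.20 (adjusted p = 0.0021), while Sult2a2 (−3.26, adjusted p = 0.099) and Sult1a1 (−1.53, adjusted p = 0.083) did not pass. For Sult2a1 and Sult2a5 the fitted size depends on the 1 TPM added before the logarithm, since mice are at 0. In females 3 of the 24 genes fitted were called, and 0.422% of all genes (45 of 10655). Sult2a1 and Sult2a5 were fitted because of their level in the control ASO females alone, so nothing is read from this count. Without the mouse labelled Upf3b10 replicate 3 the females gave 4 calls, Sult1a1 (−1.22, adjusted p = 0.036) with the same 3.

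In males alone 0 of the genes were called in limma, against 0.561% of all genes (56 of 9989). Sult1a1 had the lowest adjusted p (−0.98, adjusted p = 0.162) and Ugt1a9 the largest fitted change (−3.05, adjusted p = 0.335). Sult1b1 was at −1.44 (adjusted p = 0.18). Females and males were set against each other in 1 model over the 20 ASO-treated mice. The difference of the effect between the sexes (males minus females) was 4.22 ± 0.90 for Sult2a5 (adjusted p = 0.229), 4.02 ± 0.99 for Sult2a1 (adjusted p = 0.706), 3.48 ± 1.02 for Sult2a2 (adjusted p = 1), 3.14 ± 0.82 for Sult3a1 (adjusted p = 0.706), 2.56 ± 0.88 for Sult2a7 (adjusted p = 1) and 6.80 ± 2.05 for Ugt1a9 (adjusted p = 1). No gene of the 20 passed, and 7 had an unadjusted p under 0.05, as did 348 of all 9797. Of all genes 0.0102% passed, and 0.674% met the study's own thresholds (a change of 2-fold or more together with p ≤ 0.01 before adjustment), as did 6 of the 20. Since the Sult2a genes named here and Sult3a1 were near 0 in males of the control ASO groups, a fall in males could not have been measured.

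**Figure D3:**
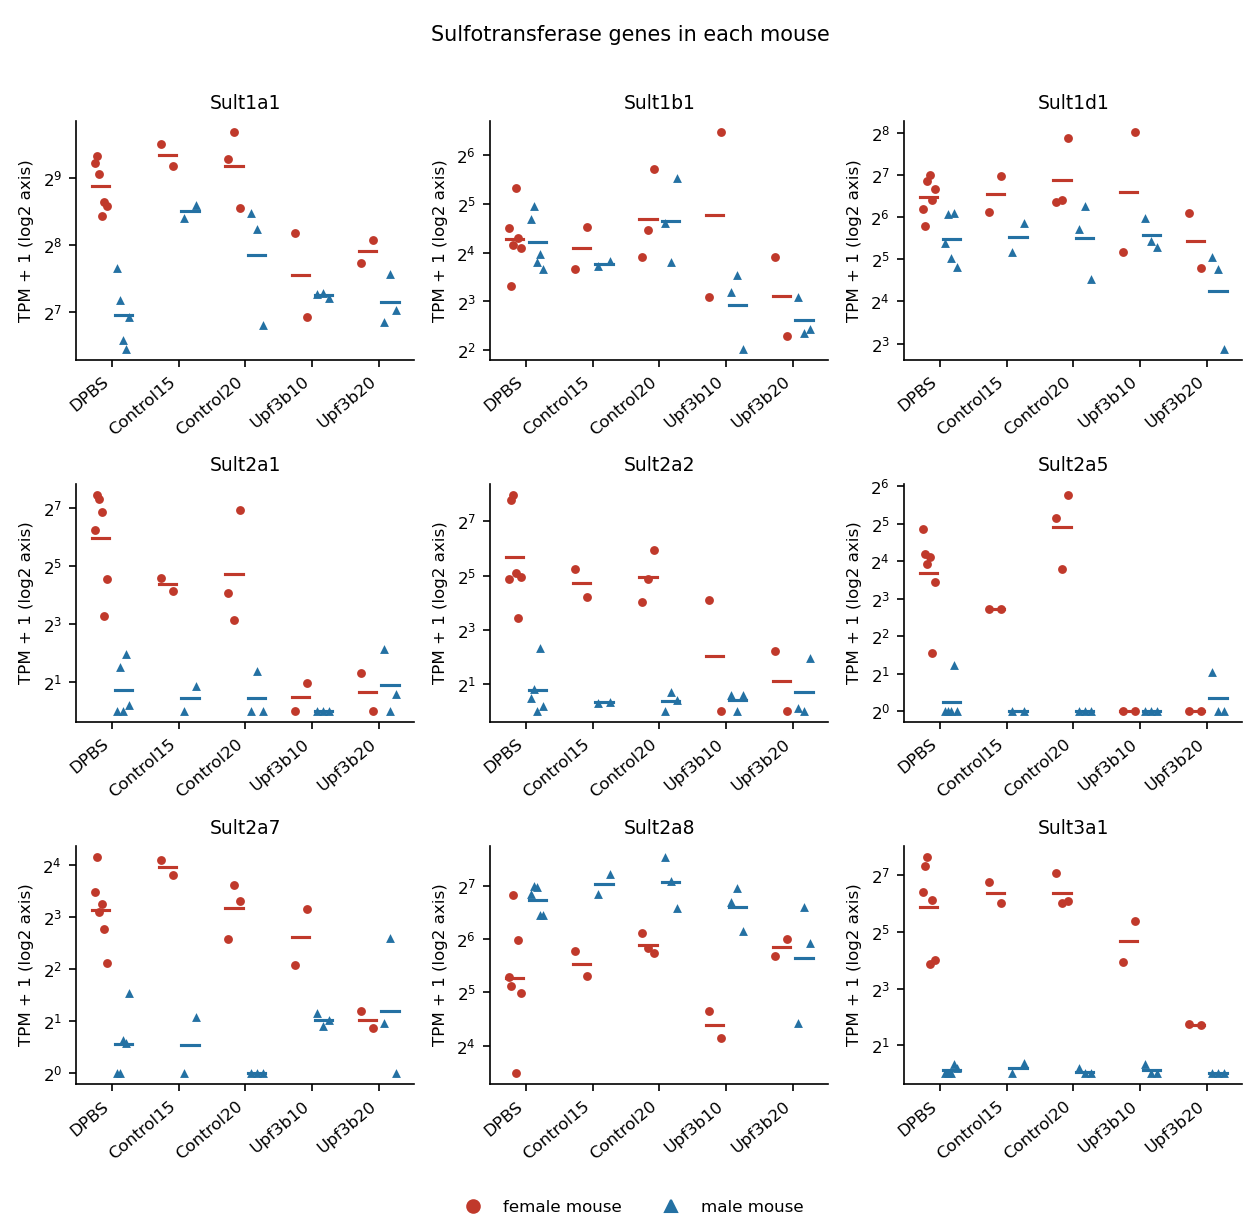
TPM + 1 on a log2 axis (y) of sulfotransferase genes in each mouse by group (x), 1 point per mouse with colour for sex, and bars at the mean of the log values of each group and sex. Sult2a5 is at 0 TPM in all 4 females given the Upf3b ASO, and Sult1a1 in those females, 121 to 289 TPM, lies below the other 11 females.

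The other Sult2a genes over the filter were Sult2a8 and Sult2a7. Sult2a8 (chr7:14410686-14446769, minus strand), a bile acid sulfotransferase, was 10.1 to 112 TPM in DPBS females and 86.3 to 127 TPM in DPBS males. It was 103, 124 and 70.4 TPM in Upf3b10 males and 20.5, 95.8 and 60.1 TPM in Upf3b20 males, where males given the control ASO had 95.3 to 186 TPM, and it did not pass (−0.78 ± 0.29, adjusted p = 0.105, or 0.0498 without Upf3b20 replicate 6). Sult2a7 was 3.25, 7.84, 1.28 and 0.821 TPM in females given the Upf3b ASO and 4.96 to 16.0 TPM in females given the control ASO (−0.32 ± 0.50 over both sexes, adjusted p = 0.752, and −1.74 ± 0.64 in females alone, adjusted p = 0.284), with 3 of the 4 below all 5.

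Counted over the genes that reached the filter, values were mostly lower with the Upf3b ASO and few passed. At the lower dose level 0 of 18 passed an adjusted p under 0.05 in limma, against 0.295% of all 9166 genes. At the higher level 1 of 18 passed (Sult1b1) against 2.52% of 9376 genes. Over both levels 3 of 20 passed (Sult1a1, Ugt1a9 and Ugt2b34), all lower, against 6.29% of 9797 genes in either direction and 3.70% lower. A count of 3 of 20 is small, and these genes were fitted because some group reached 5 TPM.

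At the study's own thresholds, a change of 2-fold or more together with p ≤ 0.01 before adjustment, Sult1a1 passed at the lower level against 4.81% of all genes. At the higher level Sult1b1, Sult1d1 and Ugt1a9 were lower and Ugt1a8 higher, against 6.23%, and over both levels Sult1a1, Sult2a1, Sult3a1 and Ugt1a9 were lower, against 5.82%. The 2 dose levels share no mice. In the first 15 of 18 log2 fold changes were below 0 and in the second 17 of 18, against 51.6% and 56.8% of all genes. Over both, which uses the same mice, 19 of 20 were below 0 against 54.3%. The median log2 fold change of the genes was −0.74 at the lower level, −0.77 at the higher and −0.72 over both, and that of all genes −0.03, −0.12 and −0.06. Several of these genes share reads or a locus, so they are not independent of each other.

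**Figure D4:**
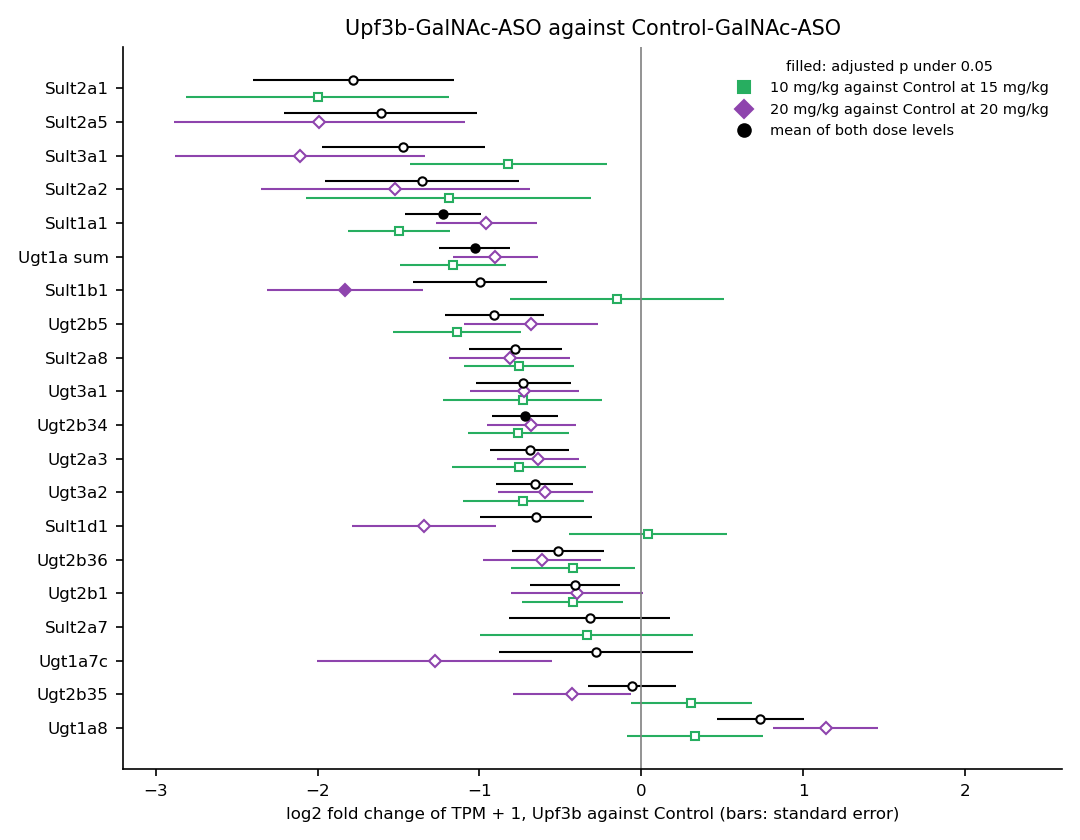
Log2 fold change of the Upf3b against the control ASO (x axis, limma on log2(TPM + 1), bars are standard errors) for each gene fitted (y axis) at the lower dose level, the higher dose level and over both, with filled points for an adjusted p under 0.05. Ugt1a9, at −6.09 over both levels, is left out because it lies off the scale. Nearly all points lie left of 0, and few are filled.

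The effects at the 2 dose levels could not be told apart by the test. Of all 9797 genes 0 passed (0%), as did 0 of the 20, with 799 and 1 at an unadjusted p under 0.05 (limma). The largest differences (higher minus lower level) were −1.90 ± 1.20 for Ugt1a7c (adjusted p = 0.675), −1.59 ± 0.82 for Sult1b1, −1.41 ± 0.69 for Sult1d1 (adjusted p = 0.61), −1.19 ± 1.0 for Sult3a1 (adjusted p = 0.755) and −0.88 ± 1.19 for Sult2a5 (adjusted p = 0.862). The first 3 of these are the genes with 26.6, 87.2 and 258 TPM in the mouse labelled Upf3b10 replicate 3, each the highest of its group. Their differences without that mouse are not given here. With any 1 mouse left out, 0 genes of the 2 families passed.

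Both ASO treatments were also set against the vehicle. For the control ASO 0 of 20 passed, and 0 of all 9391 genes (0%), with 4 and 1033 at an unadjusted p under 0.05 (limma). At the study's thresholds only Ugt1a7c passed (1.62 ± 0.51, adjusted p = 0.333), against 1.14% of all genes. Ugt1a9 differed by 3.26 ± 1.34 (adjusted p = 0.394), Ugt1a8 by −0.91 ± 0.32 (adjusted p = 0.36) and Sult2a1 by −0.88 ± 0.52 (adjusted p = 0.555).

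For the Upf3b ASO against DPBS 0 of 17 passed, with 6 at an unadjusted p under 0.05 as for 983 of all 9426 genes (limma), of which 1.08% passed when adjusted. Sult2a1 came closest (−2.67 ± 0.69, adjusted p = 0.0541), and passed without Upf3b20 replicate 2 (−2.96, adjusted p = 0.0209). At the study's thresholds Sult2a1 and Sult2a2 (−2.04 ± 0.68, adjusted p = 0.184) were lower, against 2.55% of all genes. All 17 log2 fold changes were below 0, with Ugt1a9 at −2.66 ± 2.07 (adjusted p = 0.709), Sult3a1 at −1.29 ± 0.54 (adjusted p = 0.359) and Sult1b1 at −0.93 ± 0.40 (adjusted p = 0.387). Their median was −0.49 and that of all genes 0.04. The share of all genes below 0 is not given for this comparison, and several of the 17 share reads or a locus. This comparison and the one before share the DPBS-treated mice.

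Some sulfotransferase genes differed between the sexes. Others did not pass, such as Sult1b1 in DPBS-treated mice (males against females −0.06 ± 0.41, limma adjusted p = 0.965). Among DPBS-treated mice 7 of 20 were lower in males and 0 higher, and of all 8998 genes 1.41% were called in either direction and 0.745% lower. The 20 fitted here include Sult3a2 in place of Ugt1a7c, since the filter was applied to each sex. Sult2a1, Sult2a2, Sult2a5, Sult2a7, Sult3a1 and Sult3a2 passed it through the females alone, so nothing is read from the count, and the values of the genes follow. Sult1a1 was 600, 640, 535, 345, 398 and 382 TPM in the 6 females and 200.4, 143, 94.5, 86.3 and 121 TPM in the 5 males, with no overlap (−1.92 ± 0.26, adjusted p = 0.000195). Sult3a1 was 83.2, 161, 201, 13.5, 68.7 and 15.3 TPM in females and 0 to 0.246 TPM in males, at least 112-fold lower against the floor of 3 reads per library (fitted −5.80 ± 0.66, adjusted p = 1.93e-05).

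The Sult2a genes showed the same order in these mice. Sult2a1 was 75.0, 177, 161, 117, 8.65 and 22.5 TPM in DPBS females and 0 to 2.96 TPM in males (−5.22 ± 0.71, adjusted p = 0.000212). Sult2a2 was 28.3, 222, 253, 33.4, 9.72 and 29.7 TPM against 0 to 4.06 TPM (−4.93 ± 0.75, adjusted p = 0.000691). Sult2a5 was 28.1, 17.3, 14.3, 16.4, 1.95 and 9.87 TPM against 0 in 4 males and 1.37 TPM in the other (−3.44 ± 0.63, adjusted p = 0.00527). None of these 3 overlapped between the sexes. They passed the filter through the females alone, and the share of all genes without overlap was not counted, so nothing is read from this.

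Sult2a7 (−2.58 ± 0.58, adjusted p = 0.0258) and Sult3a2 (−2.74 ± 0.66, adjusted p = 0.0441) also passed. Sult2a7 lost the call without DPBS replicate 1, 2, 3, 4, 5 or 8 (adjusted p 0.0655 to 0.0836) and Sult3a2 without replicate 1, 2, 3, 4, 8 or 11 (0.0765 to 0.121). Sult3a2 was 1.36 to 16.7 TPM in the 6 DPBS females and 0 in every male of the study. The Ugt1a sum fell by 1.11 ± 0.23 from females to males (adjusted p = 0.014), but not past the threshold without DPBS replicate 8 (adjusted p = 0.0522) or replicate 11 (adjusted p = 0.0581). Sult1d1 (−1.0 ± 0.32, adjusted p = 0.2), Sult2a8 (1.47 ± 0.43, adjusted p = 0.144, but 1.78 with adjusted p = 0.0186 without DPBS replicate 6) and Ugt2b1 (0.61 ± 0.34, adjusted p = 0.581) did not pass. At the study's thresholds 9 of the 20 were past, 8 lower and Sult2a8 higher, with 2.91% of all genes past. Nothing is read from this count, since most of the 8 passed the filter through the females alone.

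The 20 ASO-treated mice, none of which is in the comparison above, gave 5 calls of 20 fitted, and 1.93% of all 9109 genes were called. Nothing is read from this count either, for the same reason. Of these Sult3a1 (−4.74 ± 0.51, adjusted p = 2.19e-07), Sult2a2 (−2.80 ± 0.61, adjusted p = 0.00819) and Sult2a7 (−2.01 ± 0.51, adjusted p = 0.0299) were lower in males, as in DPBS-treated mice. Sult2a8 (1.16 ± 0.29, adjusted p = 0.0267) and Ugt2b1 (1.31 ± 0.28, adjusted p = 0.00664) were higher in males. Ugt2b1 (chr5:86916638-86926530, minus strand) was 20.7 to 49.1 TPM in females and 84.1 to 183 TPM in males given the control ASO. At the study's thresholds 8 were past, 6 lower and these 2 higher, with 3.43% of all genes past, and again nothing is read from the count.

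Sult2a1 (−2.17 ± 0.63, adjusted p = 0.0705), Sult2a5 (−1.98 ± 0.62, adjusted p = 0.0999), Sult1a1 (−0.84 ± 0.23, adjusted p = 0.0559) and the Ugt1a sum (−0.17 ± 0.22, adjusted p = 0.776) were called in DPBS-treated mice and not in ASO-treated mice. Whether the sex difference itself changed between the vehicle and the ASOs was not tested. In females given the Upf3b ASO these are the genes described above as low. Among mice given the control ASO, Sult2a5 was at 0 in all 5 males (at least 29.4-fold lower than in females). Sult1a1 and the Ugt1a sum were not near 0 in those males, with the sum at 1799 to 3843 TPM.

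**Figure D5:**
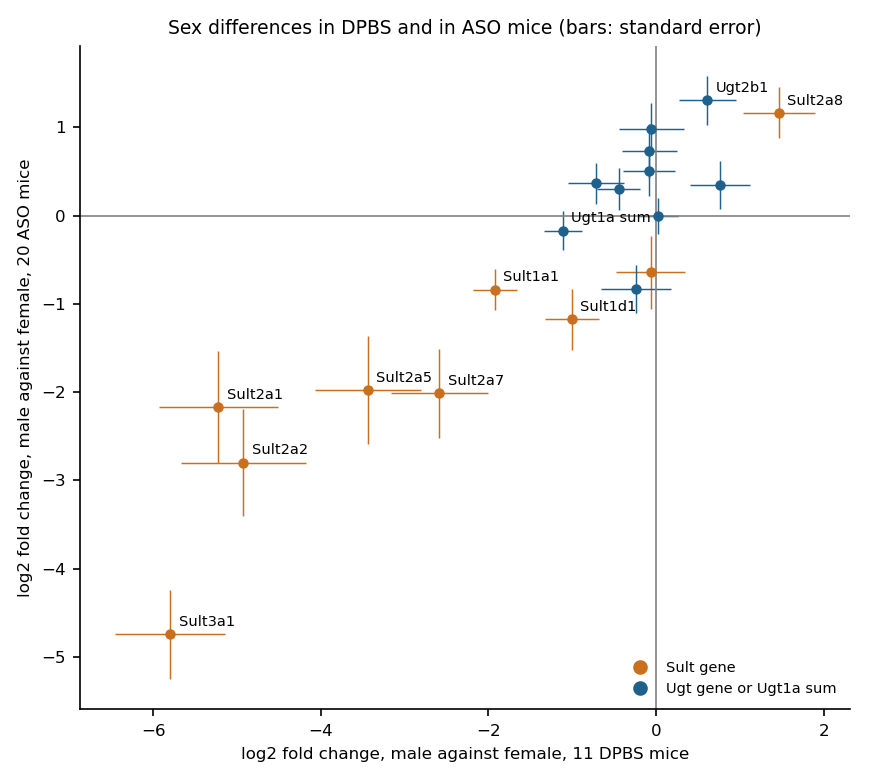
Log2 fold change of males against females in DPBS-treated mice (x axis) and in ASO-treated mice (y axis), from limma on log2(TPM + 1). Each point is a gene fitted in both or the Ugt1a sum, with colour for Sult or Ugt, and bars are standard errors. Ugt1a9 is left out as its reads are shared. Sult1a1, Sult3a1 and the Sult2a genes other than Sult2a8 lie below 0 on both axes, and Sult2a8 and Ugt2b1 above 0 on both.

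Genes that serve the same reactions were counted by lists. Of the genes that supply UDP-glucuronic acid, Ugp2, which makes UDP-glucose, differed by −0.47 ± 0.22 over both dose levels (adjusted p = 0.203) and did not pass. Of the PAPS supply and sulfate genes, 11 of 13 were fitted and 0 passed. The PAPS synthase Papss2 differed by −0.88 ± 0.31 (adjusted p = 0.0915) and the sulfate carrier Slc26a1 by −0.48 ± 0.19 (adjusted p = 0.135), and Papss2 was lower in males than in females among DPBS-treated mice (−1.27 ± 0.29, adjusted p = 0.0269). Of the deconjugating enzymes, 4 of 6 were fitted and 0 passed, with Arsa, the arylsulfatase A of lysosomes, at −0.27 ± 0.44 (adjusted p = 0.769).

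Of the transporters that move conjugates across the hepatocyte membrane, 7 of 8 were fitted and 2 fell. Here and in the lists that follow, counts over both dose levels stand against 6.29% of all genes called, 3.70% lower, and no list was tested against that share. These were Abcc2, which exports glucuronides into bile (−1.02 ± 0.30, adjusted p = 0.0404), and the uptake carrier Slco1a1 (−1.06 ± 0.27, adjusted p = 0.0173). Among the regulators, the growth hormone receptor Ghr (−1.38 ± 0.22, adjusted p = 0.000346) and Nr1i3, which encodes CAR (−0.98 ± 0.24, adjusted p = 0.016), fell. Of the inducible reference genes, which report on such receptors, 10 of 13 were fitted and 1 rose, Gsta1 (2.93 ± 0.48, adjusted p = 0.000357).

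Known sex-dependent genes other than those of the 2 families served as a reference. Of the male list, 9 of 10 were fitted and all 9 were higher in DPBS males. With the Upf3b ASO 3 of the 9 fell, Serpina1e (−3.38 ± 0.36, adjusted p = 8.7e-07), Hsd3b5 (−2.30 ± 0.57, adjusted p = 0.0155) and Cyp7b1 (−1.27 ± 0.33, adjusted p = 0.0181). Of the female list, 6 of the 7 fitted were lower in DPBS males. With the Upf3b ASO 1 of the 6 fitted fell, Acot3 (−1.80 ± 0.46, adjusted p = 0.0192).

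Markers of liver cell types moved in part with the treatment. Of 6 hepatocyte markers 2 fell (Serpina1c and Tat), of 4 periportal markers 1 (Pck1) and of 5 fitted pericentral markers 3, Oat (−2.44 ± 0.24, adjusted p = 2.33e-07), Slc1a2 (−1.83 ± 0.21, adjusted p = 2.52e-06) and Glul (−1.07 ± 0.18, adjusted p = 0.000587). The summed level of the 6 pericentral markers was 3541 to 4989 TPM in Control15, 2252 to 3677 TPM in Upf3b10, 2993 to 7091 TPM in Control20 and 2661 to 3358 TPM in Upf3b20. That of the 6 hepatocyte markers was 12910 to 26670 TPM with the Upf3b ASO and 13340 to 27060 TPM with the control ASO. Its medians were lower with the Upf3b ASO, 14460 TPM in Upf3b10 and 15360 TPM in Upf3b20, against 21540 TPM in Control15 and 21590 TPM in Control20. Of 5 endothelial markers 1 rose (Pecam1, 1.03 ± 0.23, adjusted p = 0.00678), and of the fitted Kupffer cell, stellate cell, cholangiocyte, lymphocyte and erythroid markers 0 passed. No marker of these lists was at 0 in all mice. The part of the cell types in the falls of Sult1a1, Ugt2b34 and the Ugt1a sum was not tested.

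The 18 genes with no group median of 5 TPM are given by their range. Those confined to few mice were Sult4a1, Ugt1a6b, Ugt2a1 and Ugt2a2, above 0 in 1 mouse each, with at most 10.8 TPM (Ugt1a6b). Sult2a4 was above 0 in 2 mice (at most 0.453 TPM) and Sult2a6 in 3 (at most 4.25 TPM). Sult1e1, the estrogen sulfotransferase, was above 0 in 4 females, with 12.5 TPM in 1 DPBS female, and at 0 in the other 27 mice. Sult2a3 reached 7.81 TPM, Sult1c2 3.31 TPM, Ugt2b37 11.8 TPM and Sult5a1 12.1 TPM. Ugt2b38 reached 42.3 TPM in a DPBS male and was at most 1.03 TPM in the 15 females. The rest were Ugt1a genes, whose values are described above, with Ugt1a2 at most 0.0084 TPM and Ugt1a10 at most 0.330 TPM, and Sult3a2.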

How the data were processed

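Per the labels, the authors quantified transcripts with Salmon 0.7.2 after bcl2fastq 2.17.1.14 and deposited 1 table of TPM by gene symbol per mouse, against Ensembl cDNA of GRCm38.p4. The paper's methods name a TruSeq protocol, whereas the labels name a kit that reads the 3′ ends of transcripts. Of the low TPM values above 0 of a mouse, between 75.1% and 83.2% were multiples of the value of 1 read (tolerance 0.02). Higher values were left out of this share. The low values thus behave as scaled reads that were not divided by length, and levels of different genes were not compared. Since the rest of the low values were not whole, no test for counts was used. Of 31198 symbols, 26 held dates in place of names and were dropped.

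Groups, sex and replicate numbers were taken from the sample labels, which do not tie a number to a litter, batch or day. The labels give the dose as weekly in one entry and every 5 days in another. Mice given an Upf1 ASO were not analysed here. Genes whose median reached 5 TPM in any group fitted were tested on log2(TPM + 1) with limma 3.58.1 in R 4.3.3 (lmFit, eBayes with trend and robust), with sex as a covariate, with Benjamini-Hochberg adjustment over all genes fitted, with the Ugt1a sum as 1 added row. Fold changes on this scale understate the change of low genes. Where mice of 2 groups are said not to overlap, the share of all genes without such overlap was not counted. Means over both dose levels weight the levels equally. Called means an adjusted p under 0.05; the study's thresholds, a change of 2-fold or more together with p ≤ 0.01 before adjustment, were read from these fits. Values are given for each gene over the filter; those named in a comparison are the ones called, then those past the study's thresholds, then, up to 5, those of largest change. The members and lists were chosen with earlier results of these data known. Some results of these lists are not reported here. The fits were tested on simulated data. Alternatives were other pseudocounts, filters, size factors and eBayes settings, all mice in one fit, no sex covariate, a replicate block and each mouse left out, and, chosen after seeing the data, each sex alone and mice of at least 2000000 reads. Positions and joints came from GENCODE M21 (GRCm38) and promoters from RefSeq (GRCm38.p6), read with Python 3.11.15, numpy 2.4.6 and pandas 2.3.3. Figures were drawn with matplotlib 3.10.9.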

Additional observations from a re-analysis of the deposited data

Results flagged for a closer look

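In each group of 4 to 6 mice the highest and lowest value of each gene over the filter was set against the nearest other mouse, and 14 of 83 such groups had a mouse farther off than Dixon's 95% value allows. Chance alone gives about 1 in 20. Of the 14, 7 were in Upf3b10, 3 in Upf3b20, 3 in Control20 and 1 in Control15.

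The mouse labelled Upf3b10 replicate 3, which had the fewest reads, accounted for 4 of them. Sult1b1 was 87.2 TPM there and 10.6 TPM in the nearest mouse of the group, Sult1d1 258 against 61.7 TPM, Ugt1a7c 26.6 against 7.002 TPM, and Sult2a1 0.980 against 0 TPM. The value of Sult2a1 lies below the floor of 3 reads in that library, 2.94 TPM.

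In the same group Sult1a1 was 289 TPM in female replicate 1 (nearest 154 TPM), Sult2a2 was 15.9 TPM in that mouse (nearest 0.515 TPM) and Ugt2b5 was 276 TPM in male replicate 4 (nearest 112 TPM). In Upf3b20, Sult2a5 was 1.07 TPM in male replicate 2, with the others at 0. In that group male replicate 4 had Sult2a7 at 5.07 TPM (nearest 1.28 TPM) and Ugt1a9 at 1124 TPM (nearest 122.5 TPM).

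Among mice given the control ASO, female Control20 replicate 5 had Sult1d1 at 233 TPM (nearest 83.6 TPM) and Sult2a1 at 122.9 TPM (nearest 16.0 TPM). Ugt1a7c was 27.4 TPM in female Control20 replicate 1 (nearest 9.44 TPM), and Sult1b1 was 21.9 TPM in female Control15 replicate 4 (nearest 13.2 TPM). The groups hold both sexes, which were not separated here.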

How the results depend on the processing

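The counts of called Ugt and Sult genes were small and moved with the settings. At the lower dose level 0 became 1 with log2(TPM + 5), median-ratio size factors, the replicate block or mice of at least 2000000 reads, and was 0 to 1 with each mouse left out (1 without Upf3b10 replicate 1 or 3). At the higher level 1 became 2 with log2(TPM + 5) and 0 with log2(TPM + 0.5), no filter on low values, a median of at least 1 TPM, eBayes without trend and robust, all 31 mice in one fit, the replicate block or the same mice with no block, and was 0 to 2 with each mouse left out. Over both levels 3 became 0 in males only, was 3 in females only with 0 genes shared, and was 2 to 5 with each mouse left out (5 without Upf3b10 replicate 4). The Upf3b ASO against DPBS went from 0 to 1 with all mice in one fit and 0 to 1 with each left out. The sex difference among DPBS-treated mice was 5 to 7 with each mouse left out. The difference of the effect between sexes went from 0 to 1 (Sult2a5) with no filter, a median of at least 1 TPM, or eBayes without trend and robust. The difference between dose levels and the control ASO against DPBS stayed at 0 in every fit run. Among ASO-treated mice, leaving out each mouse was not run for the sex difference.

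Of the single values, 57 alternatives lost a call, 41 gained one and 2 reversed: Ugt2b1 was −0.41 over both levels but 0.23 in females only and 0.28 in females without the mouse labelled Upf3b10 replicate 3. Sult1a1 and the Ugt1a sum kept their call over both levels in each fit over both sexes. Ugt1a9 lost it with all 31 mice in one fit (adjusted p = 0.0589), and Ugt2b34 with no filter (0.0563) and with eBayes without trend and robust (0.0671). Sult2a8 in ASO-treated mice lost its sex difference with no filter (0.0941), eBayes without trend and robust (0.0697) or mice of at least 2000000 reads (0.0796), and Sult2a7 with the last (0.0821). Over all genes, the count over both levels was 616, but 336 with no filter, 45 in females, 56 in males and 305 to 808 with each mouse left out. At the lower level it was 27, and 2 to 431 with each left out. Size factors moved the median of all genes at the higher level from −0.12 to −0.01.

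Replicate numbers are shared between groups in the labels, but mice of the same number did not deviate together (mean correlation 0.06 at the lower and −0.03 at the higher level), so the numbers were taken as names. With the replicate block the count over all genes was 95 at the lower level and 45 at the higher, against 13 and 70 for the same mice with no block.

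The depth limits what can be said of genes near the floor, which are the Sult2a genes in males and in females given the Upf3b ASO. With 4 or 5 mice per sex and treatment a missed threshold does not show that values were alike.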
